A study of Danio rerio with 24 samples.

Results

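Of the 28210 genes counted in zebrafish liver, 6 carotenoid cleavage and retinol genes are described here across 24 fish: the carotenoid cleavage genes bco1, bco1l, bco2a, bco2b and bco2l and the retinol carrier gene rbp4. They were taken by gene name and chosen by the high count of bco2l in Z+ livers, so every value of these 6 genes in Z+ livers is a description without a test. Tests of these genes were made only between A+ and A- livers and between Z- and A- livers, which hold no Z+ values. A high level in Z+ is relative to the other genotypes, so for bco2l these tests are not fully free of the choice. All 6 genes were present, and 5 passed the filter of counts above 100 in at least 3 fish. The exception was bco2b.

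Z+ fish were Tg(lfabp:eGFP-T2A-ZAAT), which express the Z mutant of human antitrypsin, and A+ fish were Tg(lfabp:eGFP-T2A-AAT), which express the wildtype protein. Z- and A- fish were the non-transgenic siblings of each line. Each of the 4 genotypes had 6 fish, all 2 months post fertilisation, and each library was made from polyA RNA of the liver of a fish. In both lines the fabp10a (lfabp) promoter, which is active in hepatocytes, drives eGFP joined by T2A to human antitrypsin, and both lines were kept as heterozygotes and outcrossed to TU fish. The zebrafish keeps its own antitrypsin genes in all 4 genotypes. Fish are named here by genotype and replicate number, and the labels do not say which fish shared a clutch, tank or sequencing run, nor their sex.

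Carotenoids are plant pigments that animals take up with food. BCO1 cleaves beta-carotene in the middle into retinal, which is reduced to retinol (vitamin A), whereas BCO2 is a mitochondrial enzyme that cuts carotenoids away from the centre and so removes them without yielding retinal directly. The intestine is the main site of carotenoid cleavage by BCO1 in mammals, and the liver stores retinyl esters and secretes retinol bound to RBP4.

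Counts per fish ranged from 33898825 to 44715713, and values are given in CPM, that is, counts divided by library size after TMM scaling, which sets the libraries to a common scale by genes of typical change. A gene with 3 counts, taken as the floor, would have 0.0492 to 0.149 CPM depending on the fish. The transgene entry had 24326 to 331234 counts in Z+, 94778 to 192578 in A+, 5 to 274 in Z- and 9 to 236 in A- livers, in keeping with the labels of transgenic and non-transgenic fish, while the entry does not separate the Z form from the wildtype form. The 8 hepatocyte markers summed to between 38400 and 195000 CPM in the 24 fish. Some libraries stood apart. Transcripts of 7 enterocyte markers (fabp2, fabp6, vil1, cdx1b, slc15a1b, chia.1 and chia.2, the absorptive cells of the intestine) summed to 13800 CPM in A- fish 6, 5460 in Z+ fish 3, 4460 in Z+ fish 6 and 3200 in A+ fish 5, to 443 in A+ fish 6 and 174 in A+ fish 2, and to between 0.419 and 13.4 CPM in the other 18 fish. An eighth marker of that list, rbp2a, was dropped after its values were seen, because it reached 292 CPM or more in each fish. Vitellogenin genes took 51.6% of the counts of Z+ fish 5 and 49.2% of those of Z- fish 2, against at most 5.19% in the rest, and 7 oocyte markers summed to 1780 CPM in A+ fish 2 and to at most 130 CPM in the rest.

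Among the 3 bco2 genes, the one with the widest spread between genotypes was bco2l. Its lowest, median and highest values were 4.46, 16.9 and 27.9 CPM in Z+ livers, 0.984, 2.1 and 3.02 CPM in A+ livers, 0.88, 3.13 and 9.66 CPM in Z- livers and 1, 1.15 and 6.78 CPM in A- livers. Every Z+ fish was above every A+ fish, while the Z+ range overlapped those of both non-transgenic groups. The Z+ group itself split in 2 parts, with 24.8, 25.6 and 27.9 CPM in fish 1, 2 and 3 and with 8.29, 4.46 and 8.99 CPM in fish 4, 5 and 6. The 3 lower Z+ fish lay among the values of Z- fish 4 (9.66 CPM), Z- fish 1 (6.83 CPM), A- fish 6 (6.78 CPM) and Z- fish 2 (4.33 CPM).

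As a log2 fold change, bco2l differed by 3.03 ± 0.64 (SE) between Z+ and A+, by 2.01 ± 0.61 between Z+ and Z-, and by 2.49 ± 0.49 between Z+ and the mean of Z- and A-. Z+ and A+ groups with no overlap and Z+ higher occurred in 2.25% of the 11801 genes tested, and since the choice of genes used this contrast, nothing is read from it. With any single fish left out, the 3 log2 fold changes ran from 2.82 to 3.22, from 1.80 to 2.45, and from 2.28 to 2.90. These fits use the same Z+ values as the choice, so the ranges are a description and no support for a difference.

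In the comparisons without Z+ livers, bco2l was not called. The log2 difference between A+ and A- livers was -0.06 ± 0.60 (adjusted p = 0.96), and without A- fish 6 it was 0.81 (adjusted p = 0.36). Between Z- and A- livers it was 0.96 ± 0.60 (adjusted p = 0.50), with 3 Z- fish above 4 CPM and 1 A- fish above that level, and without A- fish 6 it was 1.79. An SE of this size leaves differences of more than 1 log2 unit within the interval, so equal levels are not shown. Whether the difference between Z+ and Z- is itself larger than that between A+ and A- was not tested.

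**Figure D1:**
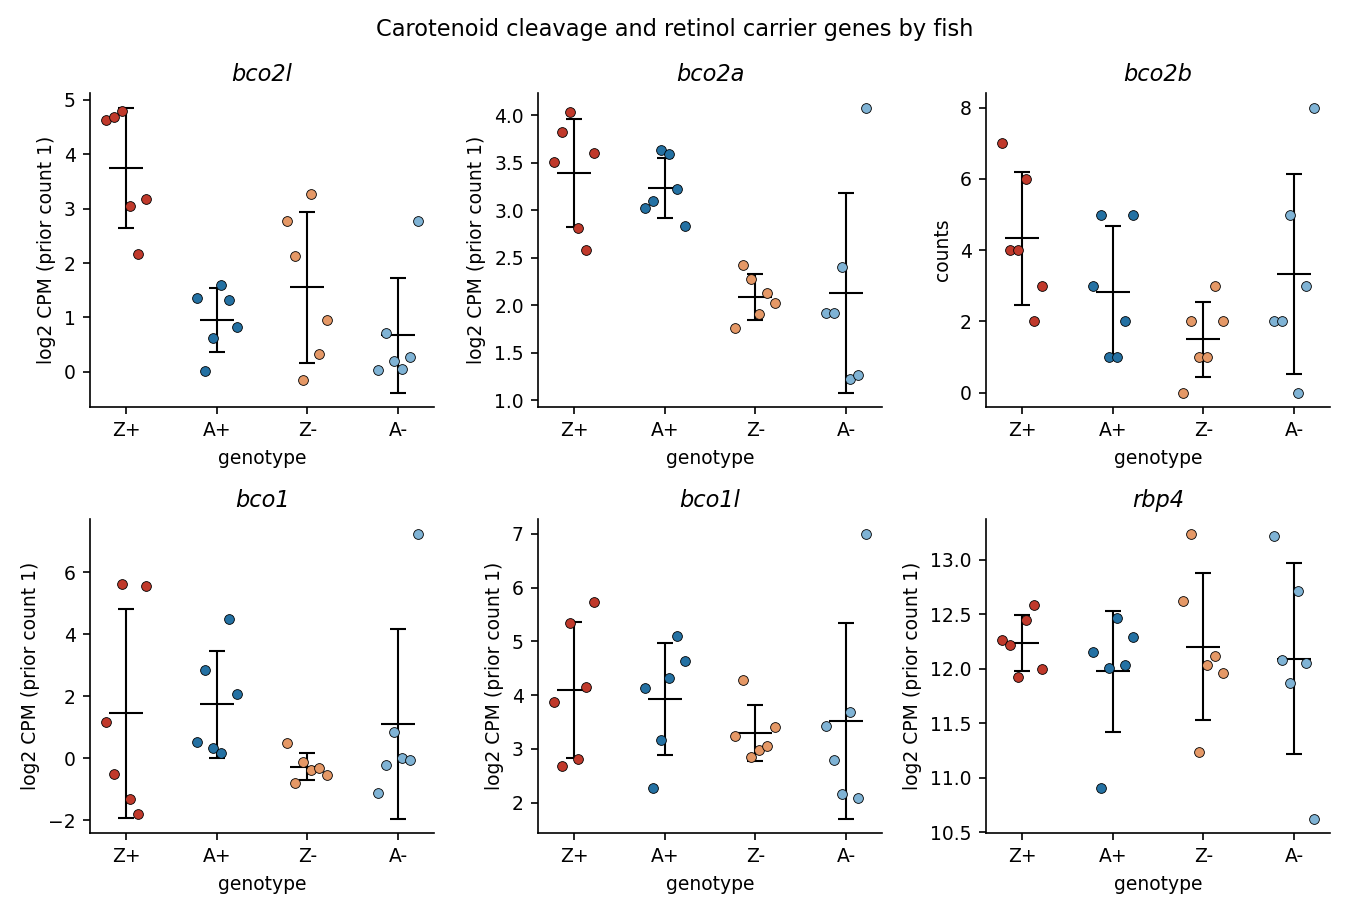
Levels of the 6 genes in each of 24 fish, by genotype (Z+, A+, Z- and A-, 6 fish each), as log2 CPM with a prior count of 1, or as raw counts for bco2b. Each point is a fish, and the bar and whiskers are the mean ± SD. In the bco2l panel 3 Z+ fish lie above all others, and in the bco1 panel A- fish 6 stands alone at 151 CPM.

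Within Z+ livers the transgene level and bco2l kept the same order only in part. Transgene CPM was 6890, 5210 and 3790 in fish 1, 2 and 3, and 3620, 903 and 4820 in fish 4, 5 and 6. The fish with the least transgene, fish 5, also had the least bco2l and the vitellogenin share of 51.6%. Fish 4 was the next lowest of the Z+ fish in both, whereas fish 6 had more transgene than fish 3 and less bco2l. A+ livers held 1550 to 4870 CPM of the transgene entry with at most 3.02 CPM of bco2l. The relation of the transgene level to bco2l was not tested. Beside the enterocyte markers, bco2l varied in both directions. Z+ fish 2, with the lowest marker sum of all 24 fish (0.419 CPM), had 25.6 CPM, and A+ fish 5, with a sum of 3200 CPM, had 2.47 CPM. Yet A- fish 6, with the highest sum (13800 CPM), had 6.78 CPM, beside at most 1.62 CPM in the other A- fish. Z+ fish 3, with a sum of 5460 CPM, had the highest bco2l, 27.9 CPM. The part of enterocyte transcripts in the bco2l values was not tested. Without the 4 fish with the highest marker sums, bco2l had a range of 4.46 to 25.6 CPM in 4 Z+ fish and 0.984 to 3.02 CPM in 5 A+ fish, and the log2 differences of Z+ were 1.94 ± 0.57 from Z- and 2.84 ± 0.48 from the mean of Z- and A-.

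The next gene on either side of bco2l in the order of RefSeq genes (GRCz12tu) was ela3l, an elastase gene of the exocrine pancreas, and si:ch211-214j8.12. Medians for ela3l were 186 CPM in Z+, 82.9 in A+, 63.2 in Z- and 204 in A- livers, and it passed the threshold in none of the 5 comparisons. For si:ch211-214j8.12 the medians were 2.83 CPM in Z+, 1.23 in A+, 1.27 in Z- and 1.52 in A- livers. It rose by 1.04 ± 0.33 on the log2 scale in Z+ compared with the mean of Z- and A- (edgeR, adjusted p = 0.036), where 16.8% of all genes passed. Its differences of 0.69 from A+ (adjusted p = 0.27) and 1.18 from Z- (adjusted p = 0.057) did not pass. Both neighbours were named after their values were seen, so nothing is read from that call. Exocrine pancreas markers summed to 98.9 to 10500 CPM in Z+, 73.3 to 27200 in A+, 67.9 to 10700 in Z- and 694 to 15100 in A- livers. The fish with the highest sum, A+ fish 1, had 2.53 CPM of bco2l, and Z+ fish 5, at 10500 CPM, had 4.46 CPM. Z+ fish 1, with the lowest Z+ sum of 98.9 CPM, had 24.8 CPM. Yet the highest bco2l of Z-, A- and Z+ livers was in fish with large sums. These were Z- fish 4 (10700 CPM of markers, 9.66 CPM of bco2l), A- fish 6 (15100 and 6.78 CPM) and Z+ fish 3 (8440 and 27.9 CPM). The part of pancreas transcripts in the bco2l values was not tested.

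The bco2a gene, another bco2 copy, is separated from bco2l by 94 protein-coding genes in the same annotation. Its lowest, median and highest values were 5.98, 11.7 and 16.3 CPM in Z+ livers, 7.12, 8.94 and 12.3 in A+ livers, 3.37, 4.19 and 5.33 in Z- livers and 2.31, 3.76 and 16.8 in A- livers. Both transgenic groups overlapped the A- group through A- fish 6, the fish with 16.8 CPM, while no other A- fish was above 5.25 CPM. With that fish set aside by choice, both transgenic groups lay above both non-transgenic groups after TMM scaling. The share of genes with that pattern was not counted, and nothing is read from it. Every Z+ fish was above every Z- fish after TMM scaling, a pattern of 4.81% of the genes tested. The gap was narrow, with 5.98 CPM in Z+ fish 5 and 5.33 CPM in Z- fish 2. Both patterns depended on the scaling. With library totals in place of TMM, Z+ fish 5 had 3.89 CPM, below Z- fish 3 (5.5 CPM) and A- fish 3 (5.67 CPM). Z+ and A+ overlapped throughout.

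Between A+ and A- livers, bco2a differed by 0.74 ± 0.38 on the log2 scale with all fish in the fit, which did not pass (adjusted p = 0.21). Without A- fish 6 the difference was 1.49 ± 0.25 and passed (edgeR, adjusted p = 0.0036). That fish was the only A- fish above the lowest A+ fish, so leaving it out removes the overlap by choice, and nothing is read from that. A- fish 6 was also the fish with the most enterocyte transcripts. Without all 4 enterocyte fish, an alternative added after the data were seen, the difference was 1.48 ± 0.27 (adjusted p = 0.011). These 4 include A- fish 6, so nothing is read from that value either. Over the 24 fits that leave out a single fish the adjusted p ran from 0.0036 to 0.37, and only the fit without A- fish 6 passed. In Z- compared with A- livers the value was -0.42 ± 0.38 (adjusted p = 0.68), and 0.29 without A- fish 6.

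For Z+ livers the log2 differences of bco2a, again without a test, were 0.22 ± 0.37 from A+, 1.38 ± 0.38 from Z- and 1.17 ± 0.31 from the mean of Z- and A-.

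The third copy, bco2b, was close to absent. It had 2 to 7 counts in Z+ fish, 1 to 5 in A+ fish, 0 to 3 in Z- fish and 0 to 8 in A- fish, and 2 of the 24 fish had 0 counts. The highest level was 0.171 CPM, in A- fish 6. Mean levels were 0.11 CPM in Z+, 0.0724 in A+, 0.0428 in Z- and 0.0787 in A- livers, all near the floor. Differences of bco2b between genotypes were not tested.

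The values of bco1 were set by a few fish. The lowest, median and highest were 0.26, 1.45 and 49.2 CPM in Z+ livers, 1.11, 2.79 and 22.4 in A+ livers, 0.548, 0.765 and 1.39 in Z- livers and 0.437, 0.961 and 151 in A- livers. The highest fish had 580 times the level of the lowest, and 7 of 24 fish had more than 100 counts. The 4 fish with the most bco1 were A- fish 6 (151 CPM), Z+ fish 3 (49.2 CPM), Z+ fish 6 (47.2 CPM) and A+ fish 5 (22.4 CPM), which is the order of the enterocyte marker sums. A+ fish 2 and A+ fish 6 followed with 7.2 and 4.17 CPM and were also the next 2 by marker sum, in the other order. The remaining 18 fish had at most 2.23 CPM.

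For each 100 CPM of the 7 enterocyte markers, bco1 had 1.09, 0.901, 1.06 and 0.699 CPM in A- fish 6, Z+ fish 3, Z+ fish 6 and A+ fish 5. The value was 0.94 in A+ fish 6 and 4.13 in A+ fish 2. In the other 18 fish it ran from 4.74 (Z- fish 2) to 224 (A- fish 3), so the ratio was not constant over the fish. None of the 7 markers was at 0 counts in the 4 enterocyte fish or in A+ fish 2 and 6. In each of the other 18, 0 to 3 of them were at 0. By genotype the marker sum ranged from 0.419 to 5460 CPM in Z+, from 1.97 to 3200 in A+, from 0.51 to 11.6 in Z- and from 0.791 to 13800 in A- livers. In such bulk samples more cells of a type and more RNA per cell cannot be told apart.

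**Figure D2:**
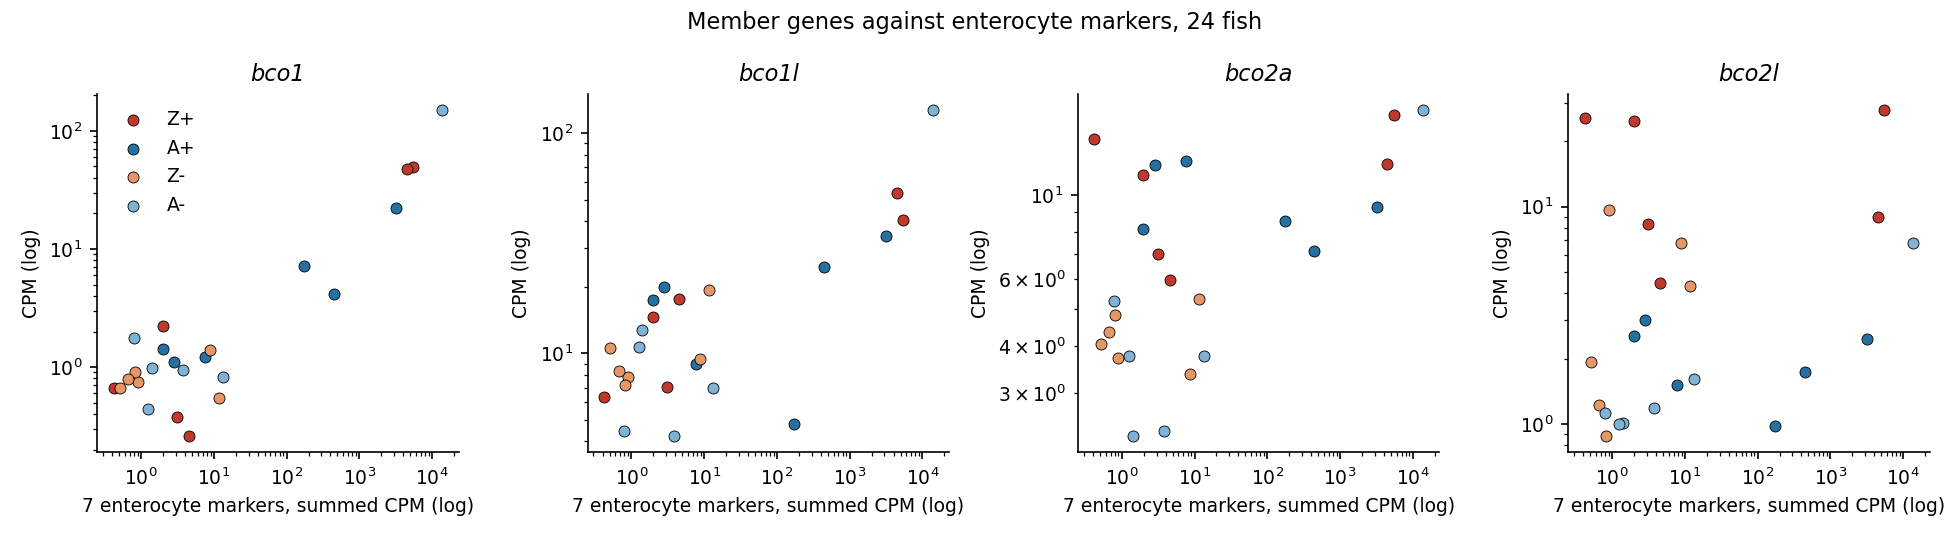
Level of bco1, bco1l, bco2a and bco2l in CPM (vertical, log scale) against the summed CPM of 7 enterocyte markers (horizontal, log scale) in 24 fish, coloured by genotype. The 4 fish with 3200 CPM or more of markers have the 4 highest values of bco1 and of bco1l. The bco2l level is 25.6 CPM in the fish with the lowest marker sum and 27.9 CPM in Z+ fish 3, with a sum of 5460 CPM.

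No genotype difference of bco1 was stable to the fish included. In A+ compared with A- livers the log2 difference was -2.05 ± 1.40 (adjusted p = 0.37), and without A- fish 6 it was 2.71 (adjusted p = 0.13). In Z- compared with A- livers it was -4.94 ± 1.61 (edgeR, adjusted p = 0.13) and passed with DESeq2 (-4.93, adjusted p = 0.0037), and without A- fish 6 it was -0.23. The Z+ values moved likewise. They were 1.41 ± 1.38 from A+ and 4.30 ± 1.56 from Z-, and -1.77 ± 0.64 from A+ and 0.09 ± 0.60 from Z- without the 4 enterocyte fish. In those 20 fish the median of bco1 was 0.523 CPM in Z+, 1.42 in A+, 0.765 in Z- and 0.941 in A- livers.

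The bco1l gene is a paralogue of bco1 and lies next to it in the RefSeq order. Its lowest, median and highest values were 6.37, 16.1 and 53.4 CPM in Z+ livers, 4.79, 18.7 and 34.3 in A+ livers, 7.16, 8.86 and 19.4 in Z- livers and 4.21, 8.83 and 128 in A- livers. All 24 fish had more than 100 counts of it. The 4 highest fish were those of bco1, namely A- fish 6 (128 CPM), Z+ fish 6 (53.4 CPM), Z+ fish 3 (40.6 CPM) and A+ fish 5 (34.3 CPM), and the other 20 fish spanned 4.21 to 24.7 CPM. A+ fish 2, the fifth fish by bco1, was the third lowest by bco1l with 4.79 CPM.

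Between A+ and A- livers, bco1l differed by -0.60 ± 0.73 on the log2 scale (adjusted p = 0.64). Without A- fish 6 the sign turned, to 1.27 (adjusted p = 0.13), and in the 20 fish without the 4 enterocyte fish the medians were 17.5 CPM in A+ and 6.94 CPM in A- livers, with a log2 difference of 0.97 ± 0.43 (adjusted p = 0.16). Without 7 fish (the 4 enterocyte fish, the 2 with high vitellogenin and A+ fish 2) it was 1.23 ± 0.36 and passed (adjusted p = 0.043). These 7 were picked after the data were seen. They include the highest A- fish (fish 6, 128 CPM) and the lowest A+ fish (fish 2, 4.79 CPM), so nothing is read from that pass. In Z- compared with A- livers it was -1.41 ± 0.75 (adjusted p = 0.40), and 0.41 without A- fish 6. The Z+ values were 0.34 ± 0.73 from A+, 1.16 ± 0.74 from Z- and 0.45 ± 0.62 from the mean of Z- and A-.

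**Figure D3:**
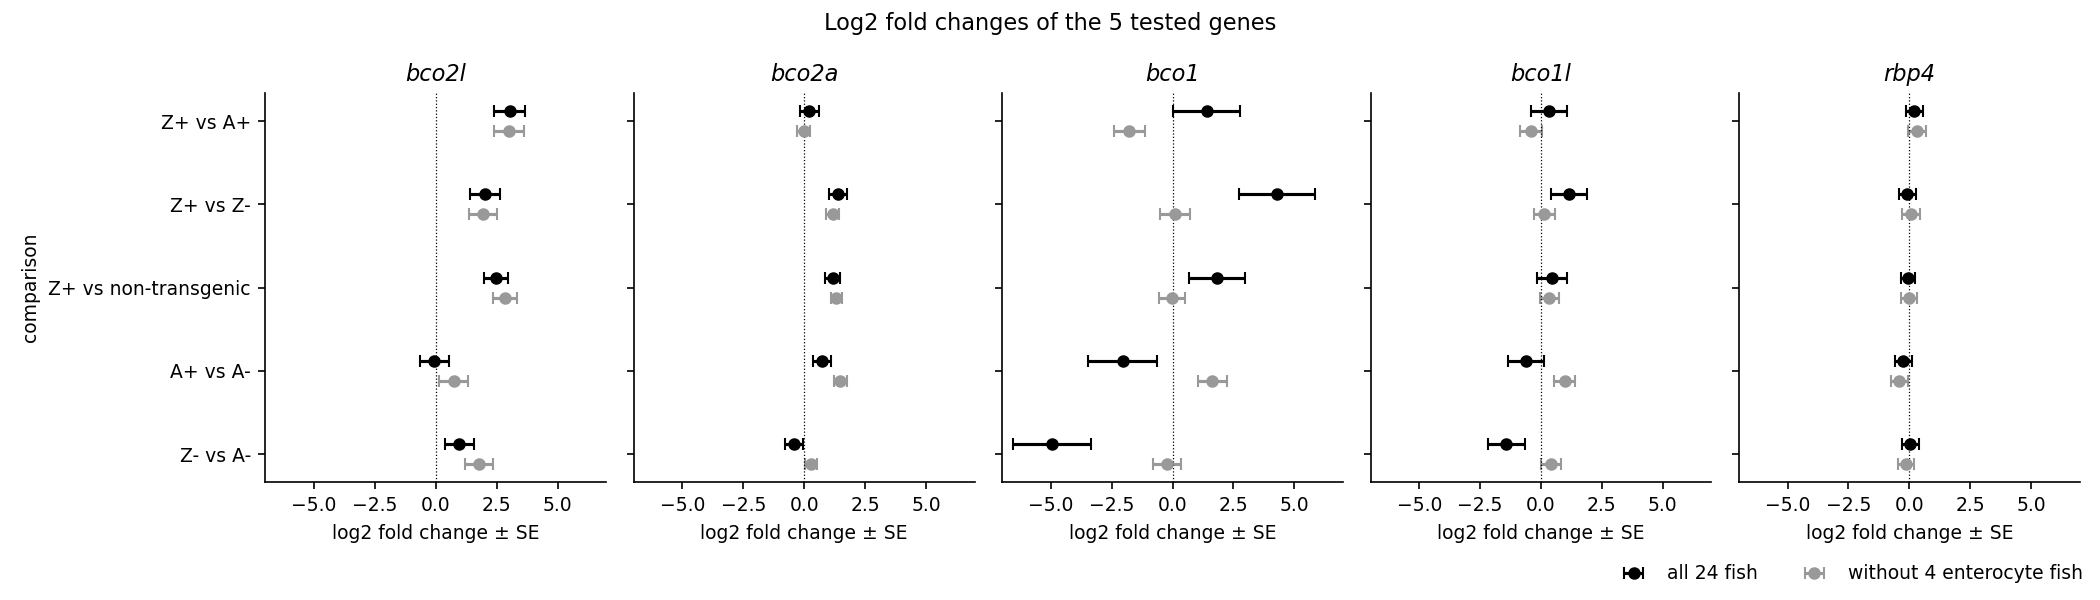
Log2 fold changes ± SE of the 5 genes tested (horizontal) in 5 comparisons (vertical), with all 24 fish in black and without the 4 fish with the most enterocyte transcripts in grey. The bco2l values in the 3 Z+ comparisons are between 1.94 and 3.03, a description only, since bco2l was chosen as high in Z+. For bco1, Z+ against A+ is 1.41 with all fish and -1.77 without the 4.

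The retinol carrier gene rbp4 was abundant in every fish and took 0.188% to 0.945% of all counts. Its lowest, median and highest values were 3880, 4840 and 6150 CPM in Z+ livers, 1910, 4380 and 5640 in A+ livers, 2410, 4320 and 9670 in Z- livers and 1580, 4280 and 9530 in A- livers. The 4 medians lay close together and the groups overlapped throughout, with the narrowest range in Z+ livers. The log2 differences were -0.24 ± 0.35 in A+ compared with A- (adjusted p = 0.70) and 0.04 ± 0.35 in Z- compared with A- (adjusted p = 0.98). For Z+ they were 0.21 ± 0.35 from A+, -0.08 ± 0.35 from Z- and -0.06 ± 0.30 from the mean of Z- and A-.

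The lowest rbp4 levels were 1580 CPM in A- fish 6, which had the most enterocyte transcripts, and 1910 CPM in A+ fish 2, which had the most oocyte transcripts. The other 3 enterocyte fish, Z+ fish 3, Z+ fish 6 and A+ fish 5, lay within the range of the remaining fish at 3880, 4080 and 4200 CPM. As a share of all counts the lowest were A- fish 6 (0.188%), Z- fish 3 (0.276%) and A+ fish 2 (0.324%). The hepatocyte markers summed to 69300 CPM in A- fish 6 and 38400 CPM in A+ fish 2, beside a median of 126000 CPM over all fish. At the high end, Z- fish 2 had 9670 CPM with 49.2% of counts on vitellogenin, and as a share of all counts its rbp4 (0.573%) was below that of A- fish 1 (0.945%). The part of these transcripts in the rbp4 values was not tested.

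Of the 5 genes tested, 0 passed in A+ compared with A-, where 10.1% of the 11801 genes passed, and 0 passed in Z- compared with A-, where 1.17% passed. At an unadjusted p under 0.05, edgeR gave 0 of 5 in A+ compared with A- and 1 of 5, bco1, in Z- compared with A-. The share of all genes at that unadjusted threshold was not counted. DESeq2 called 0 of 5 in A+ compared with A-, beside 1815 of the 11801 genes. In Z- compared with A- it called 1 of 5, beside 660 of the 11801 genes. The Z+ and Z- groups and the A+ and A- groups enter several of these comparisons, so the values are not independent of each other.

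To place the 6 genes in their pathway, 71 further genes of carotenoid uptake and retinoid handling were listed, of which 64 were in the file and 40 passed the filter. The lists were drawn up with earlier results of these data known, which limits what the p-values of list genes show. The 3 other genes of the carotenoid oxygenase family, rpe65a, rpe65b and rpe65c, did not pass, nor did the retinoic acid hydroxylases cyp26a1, cyp26b1 and cyp26c1. Of these 6, cyp26a1 had the highest count, 339 in A+ fish 2, and no other fish had more than 100 counts of it. The cyp26a1 medians were 0.214 CPM in Z+, 1.4 in A+, 0.215 in Z- and 0.182 in A- livers, and this gene was not tested. Of the 40 genes, 2 were higher and 3 lower in Z+ compared with A+, 2 higher and 3 lower in Z+ compared with Z-, and 2 higher and 3 lower in A+ compared with A-. The split was 3 and 3 in Z+ compared with the mean of Z- and A-. Over the 40 genes the median fold change on the log2 scale was -0.09, -0.01, -0.05 and 0.01 in these comparisons, beside -0.02, 0.03, 0.005 and 0.03 over all genes tested. The 5 calls of 40 stand beside shares of 11.8%, 12.2% and 10.1% over all genes, and the 6 calls against the mean of Z- and A- beside 16.8%. With library totals in place of TMM the calls numbered 1 in Z+ compared with Z-, the gene rbp7a, and 2 in A+ compared with A-, retsat and retsatl.

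**Figure D4:**
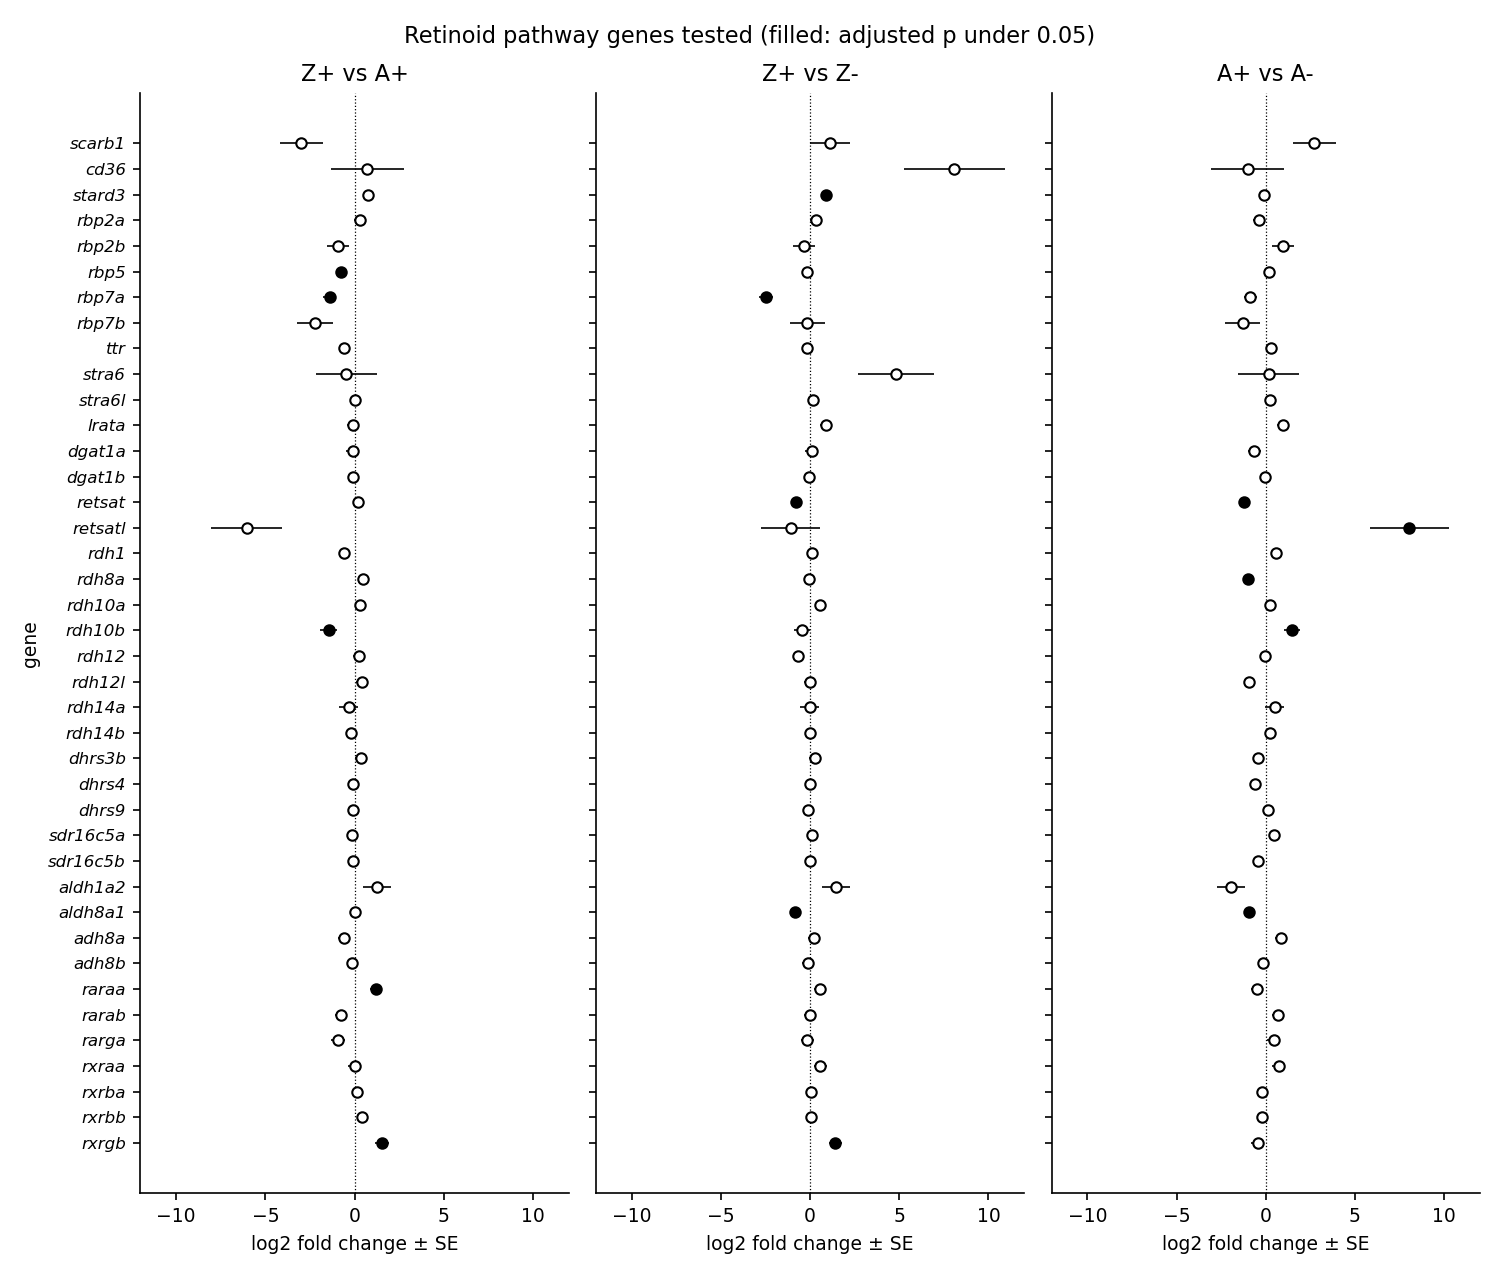
Log2 fold changes ± SE (horizontal) of the 40 genes of retinoid handling that passed the filter (vertical), in Z+ against A+, Z+ against Z- and A+ against A-. Filled points passed an adjusted p of 0.05 and open points did not. The filled points number 5 in each panel, and most genes lie near 0.

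Among the retinol binding and transport genes, 8 of the 17 in the file were tested, and rbp7a, which encodes a cellular retinol-binding protein, had the clearest differences. It had 2.79, 4.9 and 7.6 CPM (lowest, median and highest) in Z+ livers, 5.33, 15.3 and 18.1 in A+ livers, 20.5, 28.6 and 36.4 in Z- livers and 10.5, 19.1 and 45.5 in A- livers. Every Z+ fish was below every Z- fish, a pattern of 3% of genes with Z+ lower. Every Z+ fish was also below every A- fish, and the share of genes below both groups was not counted. The differences of rbp7a were as follows. It fell by 2.47 on the log2 scale in Z+ compared with Z- (SE 0.37, adjusted p = 0.00028), by 1.38 compared with A+ (SE 0.36, adjusted p = 0.018) and by 2.36 compared with the mean of Z- and A- (SE 0.34, adjusted p = 6.5e-05). These calls held whichever fish was left out. In A+ compared with A- the difference was -0.86 ± 0.35 and did not pass (adjusted p = 0.12).

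Another cellular retinol-binding gene, rbp5, fell by 0.73 in Z+ compared with A+ (SE 0.24, adjusted p = 0.049), with medians of 13.5 CPM in Z+ and 22.3 CPM in A+ livers, and the call was lost in 17 of 24 fits that left out a fish, without a filter (adjusted p = 0.059) and with the vitellogenin covariate (adjusted p = 0.069). The transthyretin gene ttr, whose product carries the RBP4 complex in plasma, had medians of 110 CPM in Z+, 167 in A+, 135 in Z- and 142 in A- livers and passed in no comparison. The difference nearest the threshold was -0.61 ± 0.28 in Z+ compared with A+ (adjusted p = 0.17).

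Of the 5 tested genes of retinol esterification and saturation, retsat, which encodes the enzyme that saturates a double bond of retinol, was lower in both transgenic lines. Its lowest, median and highest values were 158, 182 and 235 CPM in Z+ livers, 97.2, 152 and 235 in A+ livers, 224, 313 and 463 in Z- livers and 286, 381 and 456 in A- livers. It fell by 1.19 in A+ compared with A- (SE 0.23, adjusted p = 0.0053), where every A+ fish was below every A- fish, as in 2.01% of genes. In Z+ livers it fell by 0.82 compared with Z- (SE 0.23, adjusted p = 0.021) and by 0.90 compared with the mean of Z- and A- (SE 0.20, adjusted p = 0.0036), and it differed from A+ by 0.21 ± 0.22 (adjusted p = 0.58). Leaving out single fish kept the A+ call in all 24 fits and lost the call against Z- in 3. Without the 4 enterocyte fish the call against Z- was lost too (-0.73, adjusted p = 0.10).

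The retinol acyltransferase gene lrata, which esterifies retinol for storage, had medians of 9.2 CPM in Z+, 10.2 in A+, 4.54 in Z- and 4.32 in A- livers. It rose by 0.89 ± 0.28 in Z+ compared with the mean of Z- and A- (adjusted p = 0.033), and its difference of 0.95 ± 0.34 in A+ compared with A- did not pass (adjusted p = 0.073). The Z+ call was lost in 5 of 24 fits that left out a fish, without the 4 enterocyte fish (0.86, adjusted p = 0.13), with library totals (0.81, adjusted p = 0.077) and without a filter (0.81, adjusted p = 0.095). Since lrata marks hepatic stellate cells in mammals, the summed levels of 5 other markers of stellate cells and fibroblasts are given beside it: 42 to 95.2 CPM in Z+, 29.8 to 97 in A+, 23 to 63.8 in Z- and 41.4 to 206 in A- livers. Their part in the lrata values was not tested.

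The gene retsatl, a second saturase-like gene, had a large fold change between A+ and A- livers. Its lowest, median and highest values were 0.104, 0.361 and 15.3 CPM in Z+ livers, 0.923, 17.6 and 1010 in A+ livers, 0.0196, 0.402 and 29.1 in Z- livers and 0, 0.633 and 1.96 in A- livers. It rose by 8.06 ± 2.20 on the log2 scale in A+ compared with A- (adjusted p = 0.025). A+ fish 2 had 1010 CPM of retsatl and oocyte markers at 1780 CPM. A+ fish 1 and 3, with 69.8 and 33.8 CPM, had the next highest oocyte sums of 130 and 62.3 CPM. The following fish by retsatl, Z- fish 5 (29.1 CPM) and Z+ fish 3 (15.3 CPM), had oocyte sums of 46 and 40.5 CPM. Oocyte markers ranged from 0.458 to 40.5 CPM in Z+, from 1.93 to 1780 in A+, from 0.255 to 46 in Z- and from 0.36 to 3.69 in A- livers. Without A+ fish 2 the difference was 4.93 (adjusted p = 0.075). The retinol dehydrogenase gene rdh10b rose by 1.47 ± 0.47 in A+ compared with A- (adjusted p = 0.048) and fell by 1.45 in Z+ compared with A+ (SE 0.47, adjusted p = 0.047), with medians of 14 CPM in Z+, 19.1 in A+, 18.6 in Z- and 12.5 in A- livers and 147 CPM in A+ fish 2. Without that fish these values were 0.43 (adjusted p = 0.36) and -0.42 (adjusted p = 0.35). A+ fish 1 followed with 34.5 CPM of rdh10b. The next were Z- fish 2 (31 CPM) and Z- fish 1 (26.6 CPM), whose oocyte sums were 0.299 and 0.536 CPM. Z+ fish 3 had 13.3 CPM and an oocyte sum of 40.5 CPM. The part of oocyte transcripts in the retsatl and rdh10b values was not tested.

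Of the 17 tested genes of retinol and retinal oxidation and reduction, aldh8a1, an aldehyde dehydrogenase gene whose mammalian product can oxidise retinal, followed the pattern of retsat. It had 46.5, 95.2 and 120 CPM in Z+ livers, 46.5, 96.9 and 119 in A+ livers, 114, 173 and 195 in Z- livers and 121, 141 and 269 in A- livers. It fell by 0.94 in A+ compared with A- (SE 0.26, adjusted p = 0.024), with no overlap between the groups, by 0.85 in Z+ compared with Z- (SE 0.26, adjusted p = 0.034) and by 0.88 in Z+ compared with the mean of Z- and A- (SE 0.23, adjusted p = 0.01). Between Z+ and A+ it differed by 0.02 ± 0.25 (adjusted p = 0.96). The first call was lost in 3 and the second in 6 of 24 fits that left out a fish, and the second also without the 4 enterocyte fish (-0.93, adjusted p = 0.069). The retinol dehydrogenase gene rdh8a fell by 0.97 in A+ compared with A- (SE 0.28, adjusted p = 0.032), with medians of 6.43 CPM in A+ and 12.3 CPM in A- livers, and lost its call in 6 of 24 such fits and without the 4 enterocyte fish (-1.02, adjusted p = 0.056).

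**Figure D5:**
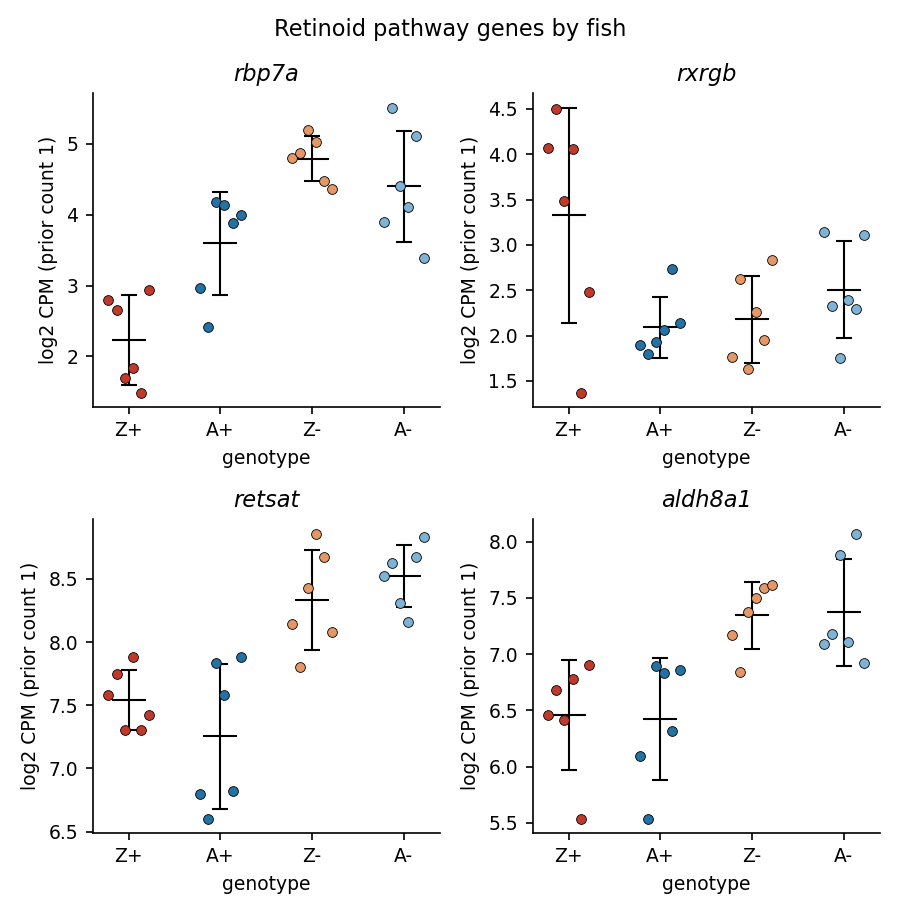
Log2 CPM (prior count 1, vertical) of rbp7a, rxrgb, retsat and aldh8a1 in each of 24 fish by genotype, with the mean ± SD. All 6 Z+ fish lie below all Z- and A- fish for rbp7a, a pattern whose share of all genes was not counted. All 6 A+ fish lie below all A- fish for retsat and aldh8a1.

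Of the 7 receptor genes tested, rxrgb, which encodes a retinoid X receptor of the gamma type, was higher in Z+ livers. It had 16.8, 22.6, 11.1, 16.7, 2.56 and 5.56 CPM in Z+ fish 1 to 6. The lowest, median and highest were 3.46, 3.96 and 6.62 CPM in A+ livers, 3.08, 4.31 and 7.12 in Z- livers and 3.36, 5.1 and 8.81 in A- livers. The 4 highest Z+ fish were above every fish of the other genotypes, and Z+ fish 5 was the lowest of all 24. The log2 rise was 1.53 ± 0.38 in Z+ compared with A+ (adjusted p = 0.015), 1.41 ± 0.38 compared with Z- (adjusted p = 0.017) and 1.24 ± 0.31 compared with the mean of Z- and A- (adjusted p = 0.0078). Without Z+ fish 2 the first 2 calls were lost (1.24, adjusted p = 0.056, and 1.16, adjusted p = 0.058).

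The retinoic acid receptor gene raraa rose by 1.18 ± 0.34 in Z+ compared with A+ (adjusted p = 0.029). It had 3.41 to 7.35 CPM in Z+ and 1.78 to 3.97 CPM in A+ livers, and its differences of 0.55 from Z- (adjusted p = 0.29) and 0.62 from the mean of Z- and A- (adjusted p = 0.14) did not pass. Its call was lost in 4 of 24 fits that left out a fish, without the 4 enterocyte fish (1.15, adjusted p = 0.077) and with library totals (0.99, adjusted p = 0.05). In the list of uptake genes stard3, which encodes a sterol transfer protein that binds lutein in mammals, rose by 0.89 ± 0.28 in Z+ compared with Z- (adjusted p = 0.042) and by 0.78 ± 0.24 compared with the mean of Z- and A- (adjusted p = 0.026). Its values were 5.09 to 12 CPM in Z+ livers and 3.74 to 5 CPM in Z- livers, without overlap, as in 4.81% of genes with Z+ higher. The stard3 call against Z- was lost without a filter (0.78, adjusted p = 0.085) and with library totals (0.84, adjusted p = 0.27). It was lost too with the replicate block (0.83, adjusted p = 0.056) and without the 4 enterocyte fish (1.02, adjusted p = 0.05). Of the 24 fits that left out a fish, 10 lost it. The call against the mean of Z- and A- was lost in 3 such fits and with library totals (0.70, adjusted p = 0.25). The scavenger receptor gene scarb1, which takes up carotenoids and lipoprotein lipids, had medians of 2.75 CPM in Z+, 11.1 in A+, 1.73 in Z- and 1.45 in A- livers, with 244 CPM in 1 A+ fish, and passed in no comparison.

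Between Z- and A- livers 0 of the 40 genes passed with edgeR, beside 1.17% of all genes. At an unadjusted p under 0.05 edgeR gave 7, and the share of all genes at that threshold was not counted. DESeq2 called 2, beside 660 of the 11801 genes tested.

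The genes whose log2 CPM followed each member most closely over the 24 fish were named by Pearson's r, as a description over libraries that share their scaling and the tissue mixtures given above. For bco1 these were abcg2b (r = 0.97), capn3a, aqp8a.2, si:ch211-197g15.7 and ms4a17a.17 (each 0.96), and in the 20 fish without the 4 enterocyte fish r was between 0.77 and 0.86. For bco1l they were zgc:92161 (r = 0.94), spryd7a (0.89), CU459056.1 (0.89), zgc:172079 (0.88) and AL831745.1 (0.88), with 0.59 to 0.82 in the 20 fish. The transporter gene abcg2a led for bco2a (r = 0.90), followed by nedd4l (0.89), slkb (0.87), grhpra (0.85) and nrarpa (0.82), with 0.76 to 0.88 in the 20 fish.

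For bco2l the closest were zgc:153759 (r = 0.83), si:dkeyp-100h4.1 (0.83), the linker histone gene h1fx (0.81), fam208b (0.80) and ushbp1 (0.80). Once each genotype's mean was taken out, r was between 0.52 and 0.67, so a part of the likeness was the difference between genotypes. These genes were picked for following bco2l, itself chosen as high in Z+, so their levels by genotype are no separate result. The level of zgc:153759 was 13.5, 11.8, 9.27, 8.43, 5.72 and 9.81 CPM in Z+ fish 1 to 6 and ranged over 2.07 to 5.08 CPM in A+, 4.67 to 6.7 CPM in Z- and 2.82 to 5.64 CPM in A- livers, so that Z+ overlapped Z- through fish 5. For rbp4 they were nme2b.1 (r = 0.86), the endoplasmic reticulum cyclophilin gene ppib (0.84), rsl1d1 (0.82) and the elongation factor gene eef1g (0.82), and with the genotype means taken out r was between 0.82 and 0.87.

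Between members, r with the genotype means taken out was highest for bco1 and bco1l (0.72), then for bco1 and bco2a (0.65), for both of which A- fish 6 and Z+ fish 3 were the highest fish, and was 0.52 for bco2a and bco2l. The rbp4 level ran against bco1 (-0.59) and bco2a (-0.51) and was near 0 with bco2l (-0.06). No test was made of these values.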

How the data were processed

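Polyadenylated RNA of 24 livers was sequenced by the authors from stranded libraries. Alignment used STAR within RNAsik, against GRCz11 plus a transgene sequence and without contigs or alternate chromosomes, and reads were assigned to features by featureCounts. The deposited values are these counts per gene, without normalization, 1 column for each fish, and 0 columns were without a fish. Paralogues such as the bco2 copies share sequence, and how reads that fit more than 1 gene were counted is not given in the sources used here.

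The members and the gene lists were chosen with earlier results of these data known. All 24 fish were kept, although the study set outliers aside. Fish are separate animals of each genotype, and the p-values measure the spread between them. Counts per fish were 33898825 to 44715713, and the floor of 3 counts covers counting error only.

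In R 4.3.3, the 11801 genes with more than 100 counts in 3 fish or more (of 28210, of which 2304 had no counts) were scaled by TMM and fitted in 1 quasi-likelihood model of 4 genotype means with edgeR 4.0.16 (limma 3.58.1, common dispersion 0.298). Every adjusted p is from edgeR's quasi-likelihood test with Benjamini-Hochberg adjustment over all genes tested, with a threshold of 0.05, unless DESeq2 1.42.0 is named. The model was used in place of the study's test of each gene. SE was taken from the log2 fold change and its F statistic, and log2 CPM had a prior count of 1. The members entered the fit in the Z+ comparisons too, but since they were chosen on Z+ values no p or call of a member is reported there. Named are the 6 members, each list gene past the threshold in A+ or Z- compared with A-, up to 4 by smallest adjusted p in each list for each Z+ comparison, and the 5 genes most like each member, of which 1 is not reported here. Values of ttr, scarb1, cyp26a1, and of the genes next to bco2l, were named outside this rule after being seen. Cell type marker lists also covered erythrocytes, whose markers summed to 108 to 833 CPM.

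The alternatives were library totals, DESeq2's size factors, DESeq2's test, no filter, the replicate number as a block, a vitellogenin covariate, leaving out each fish in turn and, added after the data were seen, leaving out the fish whose libraries stood apart. The steps were tested on simulated data. RefSeq genes (GRCz12tu), another assembly than the files', served only for the order of genes, and all 6 members had an entry. Protein, promoter and transcript sequences were not used here.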

Additional observations from a re-analysis of the deposited data

Results flagged for a closer look

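Each of the 6 genes was looked at in each of the 4 genotypes. Within a genotype of 6 fish, the gap in log2 CPM between the most extreme fish and its neighbour was compared with the whole range. In all, 4 values stood out. In A- fish 6, bco1 was at 151 CPM, bco1l at 128 CPM and bco2l at 6.78 CPM, each the highest A- fish. In A+ fish 2, rbp4 was at 1910 CPM, the lowest A+ fish. Chance alone would mark about 1 in 20 groups in this way if log2 values were normally distributed, which was not tested. The 3 A- values come from 1 library. Beside them stand the 13800 CPM of enterocyte markers in A- fish 6 and the 1780 CPM of oocyte markers in A+ fish 2, and the part of these in the 4 values was not tested.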

How the results depend on the processing

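With all 24 fish, 1397 of 11801 genes passed in Z+ compared with A+ (50% of them higher in Z+), 1436 in Z+ compared with Z- (57.5%), 1985 in Z+ compared with the mean of Z- and A- (54.5%), 1196 between A+ and A- (52%) and 138 between Z- and A- (38.4%). Library totals in place of TMM gave 909 (19.1% higher), 489 (45.4%), 1059 (40.5%), 544 (64.9%) and 89 (28.1%), and moved the median of all genes by -0.19 in Z+ compared with A+ and by -0.107 in Z+ compared with the mean of Z- and A-. DESeq2 gave 1815 in A+ compared with A-, and 660 between Z- and A-. Without a filter 2305 genes passed in Z+ compared with A+ and 2182 in A+ compared with A-, with the vitellogenin covariate 2206 and 1841, and with the replicate block 788 and 568. Without the 4 enterocyte fish 765 passed in Z+ compared with Z- and 1298 compared with the mean of Z- and A-, and without 7 fish (those 4, the 2 vitellogenin fish and A+ fish 2) 214 in Z- compared with A-. Leaving out a fish gave 561 (without Z+ fish 2) to 1621 (without A+ fish 2), 871 (without Z+ fish 2) to 2188 (without A+ fish 2), 1264 (without Z+ fish 2) to 2732 (without A+ fish 2), 500 (without A- fish 5) to 1500 (without A+ fish 6) and 74 (without A- fish 5) to 233 (without A+ fish 2), in the order of comparisons above.

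Calls among the 40 list genes numbered 5, 5, 6, 5 and 0 in the same order, and 1 to 7, 2 to 7, 4 to 8, 1 to 7 and 0 to 1 over the fits that left out a fish. The block gave 2 in Z+ compared with A+ and 2 between A+ and A-, library totals 1 in Z+ compared with Z- and 2 in A+ compared with A-, DESeq2 9 in A+ compared with A- and 2 between Z- and A-, and leaving out the 4 enterocyte fish 2 in Z+ compared with Z-.

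In A+ compared with A- the sign turned for bco2l without a filter (0.051) and without the 4 enterocyte fish (0.73) or the 7 fish (0.93), for bco1 without the 4 fish (1.63), for bco1l without the 4 (0.97) or the 7 fish (1.23), and with the replicate block for bco1 (1.36), bco1l (0.32) and bco2l (0.10). Without single fish these values ran from -3.10 to 2.71 for bco1, from -0.88 to 1.27 for bco1l, from -0.20 to 0.81 for bco2l and from -0.39 to 0.044 for rbp4. In Z- compared with A- the sign turned for rbp4 with library totals (-0.12), with the covariate (-0.060) and without the 4 (-0.15), the 2 vitellogenin (-0.23) or the 7 fish (-0.41), for bco1l without the 4 (0.41) or the 7 fish (0.16) and for bco2a without the 4 (0.28) or the 7 fish (0.23). Single fish left out gave -1.68 to 0.41 for bco1l, -0.59 to 0.29 for bco2a and -0.23 to 0.33 for rbp4. None of the turned values passed apart from bco1l in A+ compared with A- without 7 fish, a pass from which nothing is read. The causes of the turned signs were not tested. Between same-numbered fish of different genotypes, r was above 0.1 in 13 of 36 pairs, from -0.448 to 0.771, with a median of -0.004. The labels state no pairing, so the numbers are used here only to name the fish. These values cannot tell whether same-numbered fish shared a clutch, tank or sequencing run. At this depth bco1 had 7 counts in its lowest fish and bco2b at most 8 in any.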
